A study of Mus musculus with 99 samples.

Results

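The genes described here are the potassium channel genes of the mouse that carry the symbols Kcna to Kcnd, Kcnf, Kcng, Kcnh, Kcnj, Kcnk, Kcns to Kcnv, Kcnab and Kcnip, with BK, SK, KCNQ and KCNE genes left out. They were chosen by symbol alone, and 74 of the 55291 symbols of the count table met the rule. Single cells were picked from cochleae of C57BL/6 mice, and each library is 1 cell. The 32 outer hair cells (OHCs) were taken at postnatal day 30 from mice of the genotype Slc26a5-CreER/+; Ai9/+, called wild type by the submitters. The 67 converted inner hair cells (cIHCs) were taken at postnatal day 42 from mice of the genotype Slc26a5-CreER/+; Rosa26Tbx2/+, and are described by the submitters as OHCs in which the transcription factor Tbx2 was overexpressed. Groups follow the titles, while the protocol text of every sample speaks of picked endogenous IHCs and of iOHCs. Both groups carry the Slc26a5-CreER allele, in which the OHC gene Slc26a5 drives a tamoxifen-inducible Cre recombinase. The groups differ in age, in the Ai9 reporter allele and in the Tbx2 allele at once. Going by its title, the study asks how far Tbx2 can turn OHCs into IHCs at different ages.

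Potassium is the main charge carrier of hair cells, entering through the transduction channels at the tip and leaving through channels of the basolateral membrane. Shaker-type pore subunits (Kv1 to Kv4) open on depolarisation, silent subunits join Kv2 pores and change their gating, and ether-a-go-go (EAG) type channels, which include the ERG channels, gate with distinct voltage ranges and speeds. Cytosolic auxiliary subunits bind Kv1 or Kv4 pores, inward rectifiers conduct best near or below the potassium equilibrium potential, and channels with a pair of pore domains per subunit carry leak currents that set the resting potential.

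In both groups the gene with the most reads among these 74 was the Kv1 pore gene Kcna10. The ERG gene read was Kcnh2 in OHCs and chiefly Kcnh6 in cIHCs. The Kv1 auxiliary gene Kcnab1 was 46.1-fold higher and the inward rectifier gene Kcnj13 2.81-fold lower in pooled cIHCs, and the leak channel gene Kcnk3 was read in 40 of 67 cIHCs and in none of the 32 OHCs.

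Counts per cell summed to 5656512 to 9287413 in OHCs and 4677682 to 13792672 in cIHCs. The number of genes with reads was lower in OHCs (median 6068.5, range 4769 to 8567) than in cIHCs (median 8546, range 7081 to 11719). Tbx2 had 3 counts over all OHCs and a pooled level of 730.7 CPM (counts per 1000000 counts of the group) in cIHCs, with reads in 67 of 67 cIHCs. The 5 OHC markers summed to 50765 CPM in OHCs against 300.6 CPM in cIHCs, the 5 IHC markers to 1527 and 9568 CPM, and the 5 general hair cell markers to 4109 and 3234 CPM. Xist was at 10 CPM or more in 4 OHCs and 55 cIHCs, and the summed Y-linked genes in 24 OHCs and 12 cIHCs. These are the cells with Xist and the cells with Y-linked reads named below, and cells under 10 CPM may still hold such reads. Sex-linked reads thus moved with the groups. For the genes described singly, values within each set of cells are given where they turn the direction or differ by over 1.5 times. The set with Xist holds 4 OHCs, so its ratios rest on few cells. OHC number 32 stood apart from the other OHCs: Kcna10 had 2 counts there (0.284 CPM, next lowest OHC 751.4 CPM), while the OHC marker Ocm was at 42610 CPM. That cell also had the fewest genes with reads of all OHCs (4769). Slc26a5 (994.4 CPM) and Otof (0.142 CPM) were at their lowest OHC level there, and Calb2 was at 0. No label names an animal, and each group was therefore treated as 1 sample and nothing was tested. Pooled CPM is the sum of counts over a group's cells divided by the group's total, and log2 ratios are cIHC over OHC. Intervals are 95% (exact Poisson for levels, exact conditional binomial for ratios, Clopper-Pearson for shares of cells). Those of levels and ratios treat reads as independent counts. Amplified reads were counted without molecular identifiers, so these intervals may be too narrow even for counting error. Those of shares treat cells as independent draws. None covers differences between cells in level or between animals.

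Of the 74 genes, 15 had no read in any cell, 13 had reads but at most 3 counts in each group and were given no ratio, and 46 had a ratio. The genes came to 3335 CPM in OHCs (lowest, median and highest cell 250.7, 3114 and 5944 CPM) and 4019 CPM in cIHCs (970.0, 3934 and 6555 CPM), and the groups overlapped. A cell had reads of a median of 9 of these genes among OHCs (range 6 to 16) and 13 among cIHCs (range 8 to 20). The medians over all genes, 6068.5 in OHCs and 8546 in cIHCs, differed in the same direction. At least 2-fold higher in cIHCs were 19 of the 46 (41.3%), against 42.6% of all genes with a ratio. At least 2-fold lower were also 19 (41.3%), against 18.8% of all genes. The median log2 ratio was 0.22, against 0.58 over all genes. When the highest cell of each gene in each group was left out, 34 genes kept a ratio, 16 of them at least 2-fold higher and 7 lower, against 49.0% and 12.4% of all genes. A mean over the groups of 10 CPM or more was reached by 15 genes, of which 5 (33.3%) were at least 2-fold higher and 5 lower, against 23.3% and 12.6% of all genes at that level.

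A pooled level of at least 10 CPM in a group was reached by 19 genes, 15 in OHCs, 14 in cIHCs and 10 in both, of which 17 are described in turn. Of the 19, 6 were at least 2-fold higher in cIHCs, 8 at least 2-fold lower and 5 within 2-fold, where 26.3% of all genes at that level were higher and 14.3% lower. In 0 of the 19 were the groups of cells without overlap, and the share over all genes was not counted. The plot of all cells shows that most of these genes were read in some cells of a group and not in others.

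**Figure D1:**
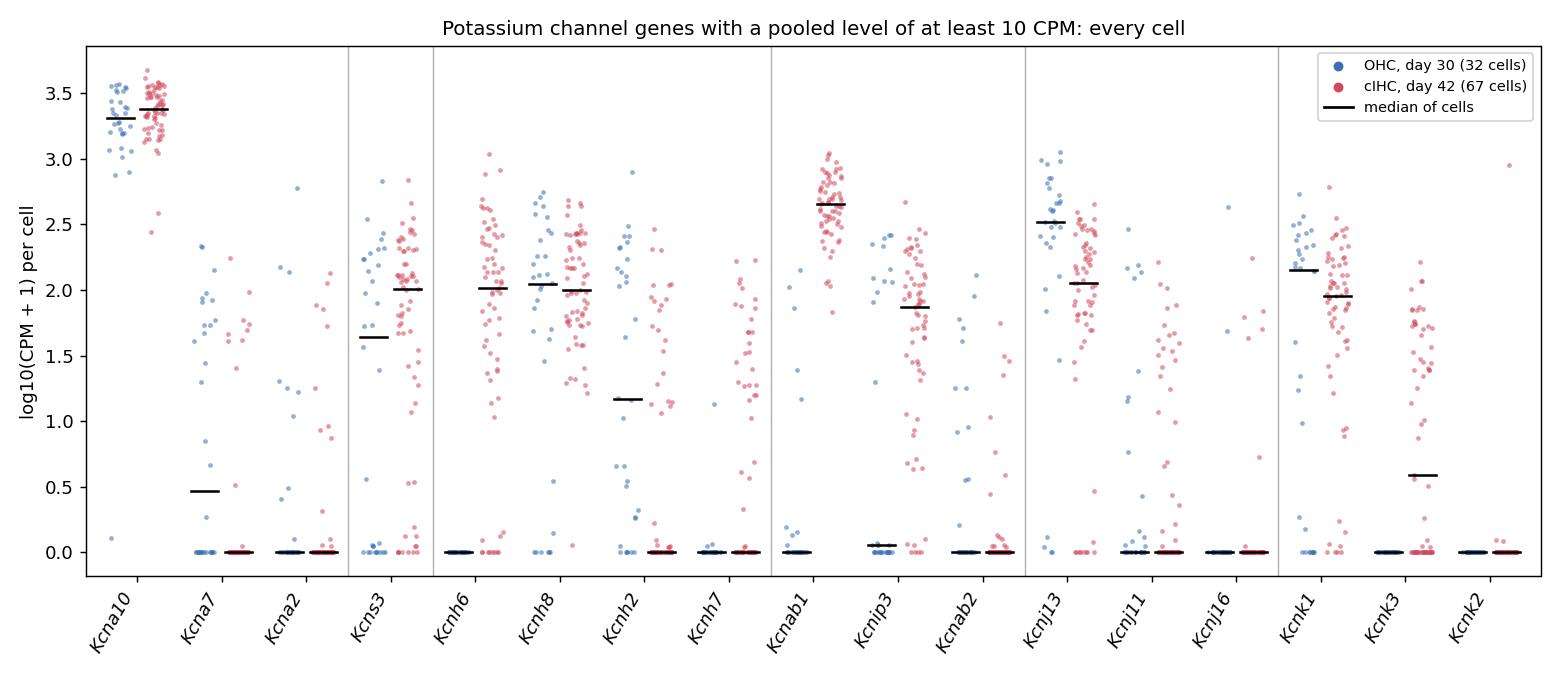
Each point is 1 cell, with log10(CPM + 1) on the vertical axis, for 17 genes with a pooled level of at least 10 CPM, ordered by role (grey lines separate roles); black bars are medians of 32 OHCs (blue) and 67 cIHCs (red). Kcna10 is high in both groups, Kcnab1 and Kcnh6 are near 0 in OHCs at the median, and the single low Kcna10 point is OHC number 32.

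Among the 17 Shaker-type pore genes, 12 had reads, 10 had a ratio, 4 were at least 2-fold higher and 5 lower. Of all genes with a ratio, 42.6% were higher and 18.8% lower by that measure. Kcna10, which encodes the Kv1.8 subunit found in hair cells and lies at chr3:107183056-107195721 (+ strand; build GRCm38, as in the GENCODE M21 annotation used for all gene positions), carried most of the signal. Its level was 2191 CPM in OHCs (lowest, median and highest cell 0.284, 2034 and 3754 CPM) and 2480 CPM in cIHCs (278.2, 2413 and 4754 CPM). The groups overlapped almost entirely and the log2 ratio was 0.18 (0.17 to 0.18), turning to -0.01 with TMM factors and -0.02 with median-of-ratios scaling. Kcna10 made up 65.7% of the CPM of all 74 genes in OHCs and 61.7% in cIHCs. Per kb of exons it had rank 1 in both groups, at 1011 CPM per kb in OHCs and 1144 CPM per kb in cIHCs.

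Kcna7 and Kcna2 were lower in cIHCs, except for Kcna2 within cells with Xist. Kcna7, which encodes Kv1.7, was at 39.1 CPM in OHCs (17 of 32 cells, highest cell 213.9 CPM) and 8.19 CPM in cIHCs (11 of 67 cells, highest 173.1 CPM), a log2 ratio of -2.25. Within cells with Y-linked reads no cIHC had Kcna7 reads, and the log2 ratio was at most -9.38. Kcna2, which encodes Kv1.2, was at 31.5 CPM in OHCs against 7.97 CPM in cIHCs (log2 ratio -1.98). A single OHC held 65.6% of the Kcna2 counts of its group, the log2 ratio was -0.89 without the highest cell of each group, and within cells with Xist it was 4.36, in the opposite direction, against -6.07 within cells with Y-linked reads. The pores partnered by the KChIP subunits were scarce. Kcnd1 was at 0.376 CPM in OHCs against 3.22 CPM in cIHCs (8 cells), and Kcnd2 had no read. Kcnd3 was read in 1 OHC.

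Of the 10 silent subunit genes, 6 had no read in any cell and 1 reached 10 CPM. Kcns3, whose product Kv9.3 works only in a complex with Kv2 pores, was at 98.4 CPM in OHCs (23 of 32 cells, median 43.9, highest 682.1 CPM) and 117.4 CPM in cIHCs (60 of 67 cells, median 100.8, highest 693.2 CPM). The groups overlapped over nearly their whole range, with a log2 ratio of 0.25 that was -0.14 within cells with Xist. All 471 cIHC counts of Kcng1 came from 1 cell, and Kcng2 was read in 4 cIHCs and in no OHC.

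Of the 8 EAG-type genes, 7 had a ratio, 3 at least 2-fold higher and 3 lower, against 42.6% and 18.8% of all genes. The ERG subfamily has 3 genes, Kcnh2 (ERG1), Kcnh6 (ERG2) and Kcnh7 (ERG3), whose channels deactivate slowly and carry current near the resting potential. OHCs had Kcnh2 reads and none of Kcnh6, and cIHCs had mostly Kcnh6. The 250 bases upstream of a RefSeq start site of each gene (build GRCm38.p6) are shown 5′ to 3′ on the gene's strand, because these 3 genes of like function are read so differently in these cells. Capitals mark GC boxes, GGGCGG or its reverse complement CCGCCC.

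Kcnh2, chr5:24329592-24329841, - strand: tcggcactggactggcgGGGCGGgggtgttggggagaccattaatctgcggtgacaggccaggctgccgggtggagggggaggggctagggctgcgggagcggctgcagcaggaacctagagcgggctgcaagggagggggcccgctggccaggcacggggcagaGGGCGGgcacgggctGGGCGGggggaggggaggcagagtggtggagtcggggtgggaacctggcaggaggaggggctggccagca
Kcnh6, chr11:106007898-106008147, + strand: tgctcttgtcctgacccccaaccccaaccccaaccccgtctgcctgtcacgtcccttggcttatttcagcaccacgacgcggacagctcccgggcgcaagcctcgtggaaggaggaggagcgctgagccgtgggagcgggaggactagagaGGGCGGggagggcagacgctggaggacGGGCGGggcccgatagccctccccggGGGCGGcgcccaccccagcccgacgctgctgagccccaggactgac
Kcnh7, chr2:63184288-63184537, - strand: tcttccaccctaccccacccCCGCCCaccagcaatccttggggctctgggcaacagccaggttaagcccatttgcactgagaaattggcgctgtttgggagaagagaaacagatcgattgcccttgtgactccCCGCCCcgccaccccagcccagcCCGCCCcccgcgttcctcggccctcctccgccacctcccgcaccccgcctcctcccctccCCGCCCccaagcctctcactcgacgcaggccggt

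The promoters hold 3 (Kcnh2), 3 (Kcnh6) and 4 (Kcnh7) GC boxes and are 73.6%, 70.8% and 67.6% G and C, against a median of 52.4% over all 32851 RefSeq promoters of that length. The Kcnh2 start shown lies inside the annotated gene, so it belongs to a shorter transcript. None of the 3 holds the T-box motif AGGTGTGA or its reverse complement TCACACCT. Over 55 of the 74 genes with a RefSeq promoter (76 promoters), that motif was found in 1 promoter (Kcnj1), against 1.12% of all promoters. The shorter GGTGTGA or TCACACC, which lies within the longer motif, was found in 5.26% of the 76 (Kcna6, Kcnc1, Kcnf1 and Kcnj1), against 3.33% of all. GC boxes were in 46.1% of the 76, against 32.7% of all, and TATAAA or TTTATA in 3.95% (Kcnj13, Kcnj16 and Kcnj9), against 12.4%.

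Kcnh6 (chr11:106008124-106034549, + strand) had 0 counts in 32 OHCs, and a count of 0 in 32 cells, taken as fewer than 3, leaves room for a share of 9.38% of such cells (Clopper-Pearson upper bound 10.9%). It was read in 59 of 67 cIHCs (88.1%, 77.8 to 94.7%), with a median of 103.4, a highest cell of 1085 and a pooled level of 170.7 CPM. The log2 ratio was at least 13.75 against a floor of 3 counts over the OHCs, at least 10.74 within cells with Xist and at least 12.90 within cells with Y-linked reads. The 59 cIHCs with reads lay above every OHC, and the others tied with the OHCs at 0. After each cell was thinned to 5770000 reads, Kcnh6 was read in 0% of 29 OHCs and 87.9% of 66 cIHCs.

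Kcnh2 (chr5:24319589-24351604, - strand), the ERG gene also known from cardiac repolarisation, went the other way. It was at 93.7 CPM in OHCs (26 of 32 cells, 81.3%, median 13.7, highest 799.6 CPM) and 24.03 CPM in cIHCs (28 of 67 cells, 41.8%, median 0, highest 289.5 CPM). The groups overlapped, with the cIHC the higher cell in 21.1% of pairs of 1 cIHC and 1 OHC, and the log2 ratio was -1.96 (-1.99 to -1.93), -1.51 within cells with Xist and -1.56 within cells with Y-linked reads. Kcnh7 (chr2:62693414-63184287, - strand) had 82 counts in OHCs, 97.6% of them in 1 cell, and 22.4 CPM in cIHCs, where 32 of 67 cells had reads (47.8%, 35.4 to 60.3%) and the highest was at 168.6 CPM. Its log2 ratio was 6.05 (5.74 to 6.38), and 11.23 when each group's highest cell was left out, which left 2 OHC counts. Within cells with Xist it was at least 7.72. A 696 bp stretch of its exons overlaps Gca on the other strand, which was at 2.11 CPM in OHCs against 4.66 CPM in cIHCs.

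Per kb of exons, the ERG genes summed to 19.4 CPM per kb in OHCs and 54.5 CPM per kb in cIHCs. Kcnh2 was 99.9% of the OHC sum, while Kcnh6 was 88.2%, Kcnh2 9.10% and Kcnh7 2.70% of the cIHC sum. The ERG gene with the highest level per kb was Kcnh2 in 25 of the 26 OHCs with ERG reads and Kcnh7 in 1. In the 66 cIHCs with ERG reads it was Kcnh6 in 53, Kcnh2 in 8 and Kcnh7 in 5. At 10 CPM or more, 16 cIHCs had both, 39 had Kcnh6 without Kcnh2, 6 had Kcnh2 without Kcnh6 and 6 had neither.

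**Figure D2:**
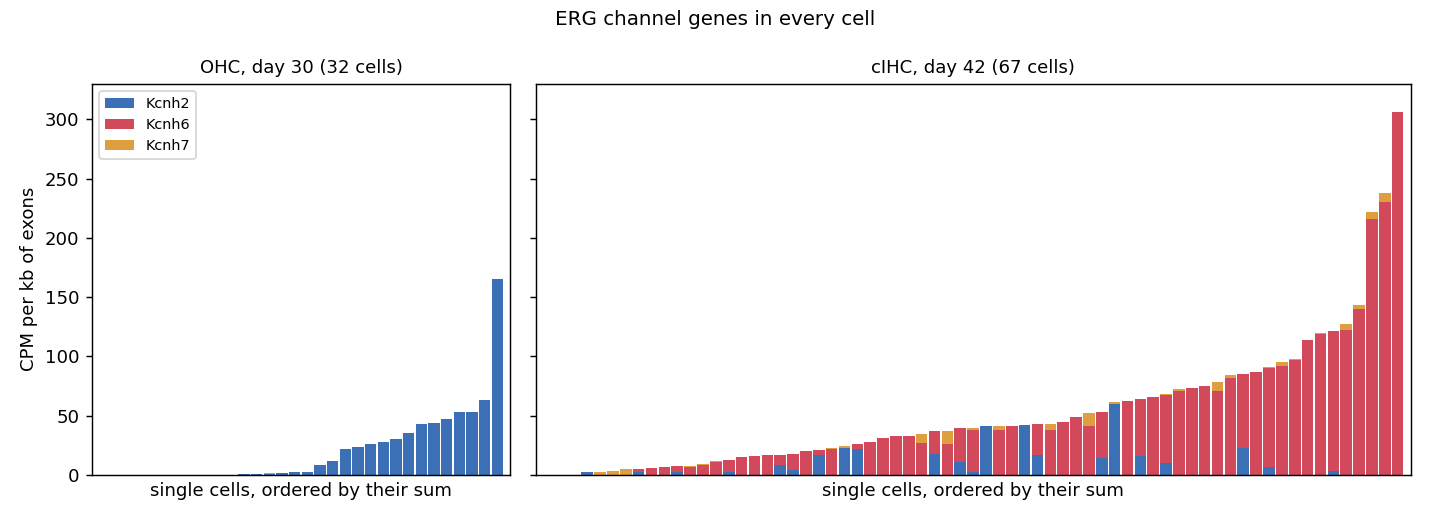
Each bar is 1 cell, ordered by its sum within the group, and the stacked colours give the level of Kcnh2 (blue), Kcnh6 (red) and Kcnh7 (orange) in CPM per kb of exons for 32 OHCs (left) and 67 cIHCs (right). The OHC bars are almost wholly Kcnh2, and Kcnh6 is the highest of the 3 in 53 cIHCs.

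Kcnh8, an EAG-type gene of the ELK subfamily, was within 2-fold, at 159.1 CPM in OHCs (26 of 32 cells, median 109.3, highest 558.6 CPM) and 151.8 CPM in cIHCs (67 of 67 cells, median 98.5, highest 486.8 CPM). The log2 ratio was -0.07 (-0.09 to -0.05), and -0.77 within cells with Xist. The Kcnh8 level across OHCs went with the number of genes with reads (Spearman rho 0.57 over 32 cells). Kcnh1, Kcnh3, Kcnh4 and Kcnh5 were each at 1.58 CPM or less in both groups.

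Of the 7 cytosolic auxiliary genes, 6 had a ratio. At least 2-fold higher was 1 and 4 were lower, against 42.6% and 18.8% of all genes. Kcnab1 (chr3:65109384-65378223, + strand) encodes the Kvβ1 subunit, which binds Kv1 pores and can speed their inactivation. It was read in 9 of 32 OHCs (28.1%, 13.7 to 46.7%), with a median of 0 and a highest cell of 140.2 CPM. It was read in all 67 cIHCs, from 67.1 to 1115 CPM with a median of 451.8 CPM. Of the 67 cIHCs, 63 lay above the highest OHC, and the cIHC was higher in 99.7% of pairs. The pooled level was 10.7 CPM in OHCs against 492.3 CPM in cIHCs, giving a log2 ratio of 5.53 (5.47 to 5.58), with 4.06 within cells with Xist and 6.61 within cells with Y-linked reads. Among these genes its level per kb was 16th in OHCs (1.24 CPM per kb) and 3rd in cIHCs (57.3 CPM per kb), after Kcna10 and Kcnj13. Kcna10, which encodes a pore of the Kv1 family, differed by 0.18 on the log2 scale, and a pairing of the products was not tested.

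Kcnab2, which encodes Kvβ2, was at 13.4 CPM in OHCs (12 of 32 cells, highest 129.6 CPM) and 2.28 CPM in cIHCs (15 of 67 cells, highest 55.3 CPM), a log2 ratio of -2.56. Within cells with Y-linked reads, where the 12 cIHCs held 1 count, it was -9.14. Kcnip3, which encodes KChIP3, a calcium-binding protein that modulates Kv4 channels and is also known as DREAM or calsenilin, was at 61.8 CPM in OHCs (17 of 32 cells, median 0.138, highest 261.5 CPM) and 96.0 CPM in cIHCs (63 of 67 cells, median 73.1, highest 466.2 CPM). Its log2 ratio was 0.64, with 0.17 within cells with Y-linked reads and 11.48 within cells with Xist, where the 4 OHCs held 1 count. Kcnip2 (6.76 and 0.706 CPM) and Kcnip4 (2.95 and 0.570 CPM) were lower in cIHCs, and 1 OHC held 82.1% and 100% of their OHC counts.

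**Figure D3:**
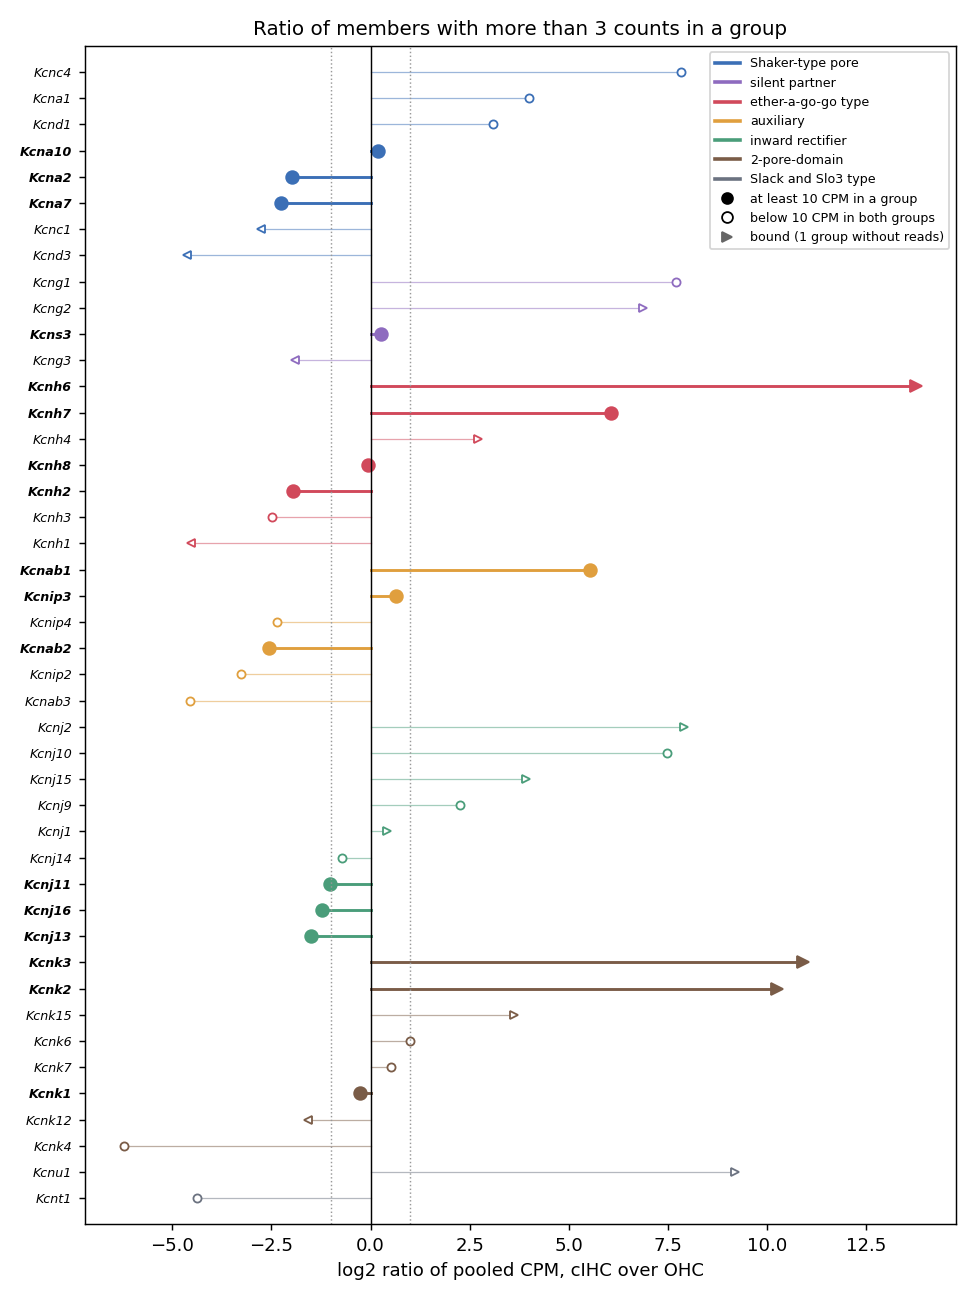
Log2 ratio of pooled CPM, cIHC over OHC, for 44 genes with more than 3 counts in a group, coloured by role; filled symbols and bold names mark those with at least 10 CPM in a group, triangles are bounds where 1 group had no read, and dotted lines mark 2-fold. Kcnh6 (at least 13.75), Kcnk3 (at least 10.91) and Kcnab1 (5.53) are high, and Kcnab2 (-2.56) and Kcna7 (-2.25) are the lowest filled circles.

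Of the 15 inward rectifier genes, 13 had reads and 9 a ratio. Of the 9, 4 were at least 2-fold higher and 3 lower, against 42.6% and 18.8% of all genes. The 3 that reached 10 CPM in a group were at least 2-fold lower in cIHCs, against 14.3% of all genes at that level. Kcnj16 was nonetheless higher when each group's highest cell was left out or within cells with Y-linked reads. The 15 summed to 442.4 CPM in OHCs against 166.4 CPM in cIHCs. Kcnj13 (chr1:87386363-87394729, - strand) encodes Kir7.1, a weak rectifier known from transporting epithelia, and made up most of the sum. It was at 400.7 CPM in OHCs (30 of 32 cells, median 331.1, highest 1134 CPM) and 142.5 CPM in cIHCs (59 of 67 cells, median 112.9, highest 455.3 CPM). The groups overlapped, with the cIHC higher in 23.4% of pairs, and the log2 ratio was -1.49 (-1.50 to -1.48), -0.75 within cells with Xist and -2.46 within cells with Y-linked reads. Per kb, Kcnj13 had rank 2 in both groups. Of its exon bases, 49.1% overlap Gigyf2 on the other strand, which was at 127.0 CPM in OHCs against 89.7 CPM in cIHCs (log2 ratio -0.50), so reads of both genes cannot be told apart if strand was not used.

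Kcnj11 encodes Kir6.2, the pore of the ATP-sensitive potassium channel. It was at 27.4 CPM in OHCs (15 of 32 cells, highest 292.5 CPM) and 13.5 CPM in cIHCs (27 of 67 cells, highest 163.3 CPM), a log2 ratio of -1.02 that was -0.76 without the highest cell of each group. Abcc8, which encodes its sulfonylurea receptor SUR1, was also lower, at 190.0 CPM in OHCs (median 145.1 CPM) and 64.1 CPM in cIHCs (median 46.4 CPM), a log2 ratio of -1.57. Abcc9, the gene of the other receptor, had no read.

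Kcnj16 encodes Kir5.1, and Kcnj10 its partner Kir4.1, a channel of supporting cells, glia and the stria vascularis. Kcnj16 was read in 2 of 32 OHCs, 87.2% of its OHC counts being in 1 cell (426.2 CPM), and in 7 of 67 cIHCs. The pooled levels were 12.65 and 5.41 CPM, a log2 ratio of -1.22 that was 1.10 without the highest cell of each group and 0.94 within cells with Y-linked reads, against -4.04 within cells with Xist. Kcnj10 had 1 count in OHCs and 0.735 CPM in cIHCs, in 7 cells of which 1 held 59.3% of the counts. Of the supporting cell markers other than S100a1, which OHCs express as well, the sums were 38.2 CPM in OHCs against 17.8 CPM in cIHCs with a median cell of 0 in both groups, and the 5 glia markers summed to 14.3 and 8.19 CPM, again with a median of 0. In the 7 cIHCs with Kcnj16 reads, the supporting cell markers with S100a1 had a median of 14.4 CPM, against 458.2 CPM in the other cIHCs. For Kcnj10 these medians were 358.8 and 429.5 CPM. The glia markers had medians of 0 with Kcnj16 reads and 7.44 CPM with Kcnj10 reads, against 0 in the other cIHCs. The macrophage and blood markers (chiefly C1qb) had medians of 53.4 and 51.9 CPM, against 0.335 and 0.901 CPM. This was not particular to Kcnj16 and Kcnj10. The same markers were higher in cIHCs with reads of Kcnu1 (87.6 against 0.141 CPM), Kcnj2 (164.1 against 0.901 CPM) and Kcnk2 (27.2 against 0.335 CPM). Of the rest of that list, C1qa and Cx3cr1 had no read over all cIHCs, Ptprc had 2 counts and Csf1r was read in 1 cell. The haemoglobin genes Hba-a1 and Hbb-bs were read in 6 and 4 cIHCs. Whether those were cells with C1qb was not examined. The part of other cells' RNA in these genes was not tested. Kcnj2 was read in 3 cIHCs and no OHC. Kcnj8, known from pericytes, had 1 count in all 99 cells.

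Of the 14 genes of the 2-pore-domain family, 12 had reads and 8 a ratio. Kcnk1, which encodes TWIK-1, was at 136.8 CPM in OHCs (24 of 32 cells, median 141.7, highest 542.9 CPM) and 113.0 CPM in cIHCs (63 of 67 cells, median 89.8, highest 614.2 CPM). The groups overlapped, the cIHC was higher in 47.2% of pairs, and the log2 ratio of -0.28 was 0.13 within cells with Y-linked reads. Kcnk3 (chr5:30588170-30625271, + strand), which encodes TASK-1, an acid-sensitive leak channel, had 0 counts in 32 OHCs, with the same limit of 9.38% of such cells. It was read in 40 of 67 cIHCs (59.7%, 47.004 to 71.51%), with a median of 2.92, a highest cell of 161.6 and a pooled level of 23.9 CPM. Its log2 ratio was at least 10.91, and at least 7.73 and 11.03 within cells with Xist and with Y-linked reads. At 10 CPM or more, Kcnk3 was present in 30 cIHCs, 26 of them also with Kcnh6. Among all 67 cIHCs, 55 (82.1%) had Kcnh6 at that level. Kcnk2, which encodes TREK-1, was at 14.9 CPM in cIHCs, but 1 cell with 901.6 CPM held all but 4 of its 8120 counts, and no OHC had a read. Without that cell the 4 cIHC counts against 0 in OHCs give no more than a bound, a log2 ratio of at least -0.78, and within cells with Xist the ratio was at least 7.40. Kcnk6 was at 2.15 CPM in OHCs against 4.31 CPM in cIHCs. Kcnu1, which encodes the Slo3 channel of sperm, was read in 11 cIHCs and in no OHC and had a pooled level of 7.18 CPM.

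**Figure D4:**
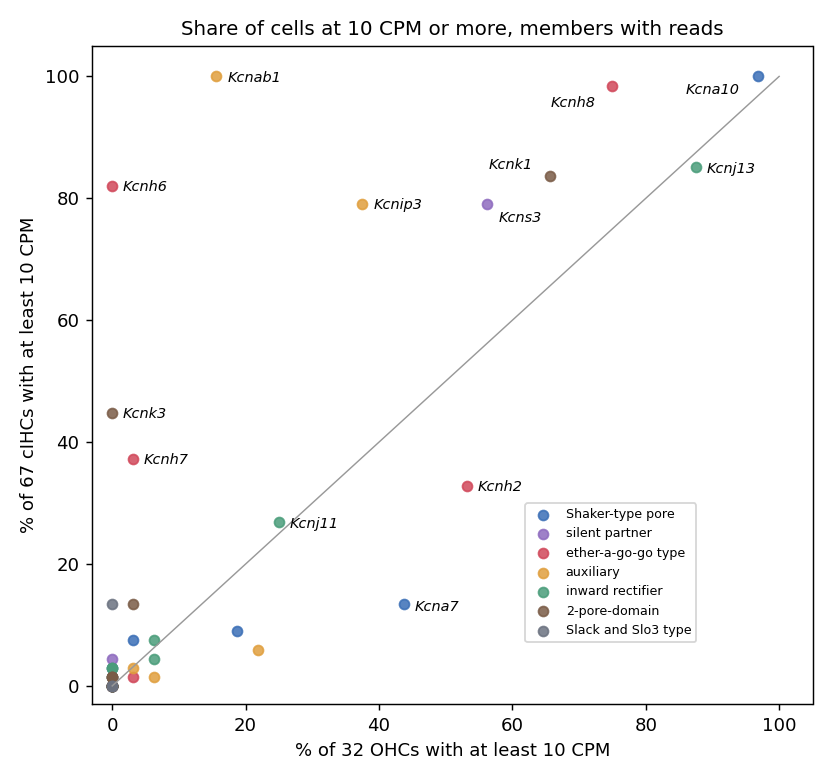
Percent of the 32 OHCs (horizontal) and of the 67 cIHCs (vertical) at 10 CPM or more for the genes with reads that are described, coloured by role; the line marks equal shares. Kcnab1 and Kcnh6 lie far above the line (100% and 82.1% of cIHCs against 15.6% and 0% of OHCs), and Kcna7 and Kcnh2 lie below it.

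The order of levels per kb at the top was alike in both groups, with Kcna10, Kcnj13 and Kcnk1 at ranks 1 to 3 in OHCs and Kcna10, Kcnj13 and Kcnab1 in cIHCs. The ranges of cells of neighbours in this order overlapped. Kcnk1 followed in cIHCs at 50.6 CPM per kb and Kcnh6 at 48.1 CPM per kb, and Kcnh6 was at 0 in OHCs.

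The 55 genes below 10 CPM in both groups gave little signal. Of these, 45 were under 1 CPM in both groups, and the highest were Kcnip2 in OHCs (6.76 CPM) and Kcnu1 in cIHCs (7.18 CPM). Of the 27 with a ratio, 13 were at least 2-fold higher and 11 lower, against 42.6% and 18.8% of all genes at any level. In 22 of the 27 a single cell held at least 50% of the counts of the higher group, and the share over all genes was not counted. The 15 without a read were Kcna3, Kcna5, Kcnb2, Kcnc2, Kcnd2, Kcnf1, Kcng4, Kcns1, Kcns2, Kcnv1, Kcnv2, Kcnj4, Kcnj6, Kcnk13 and Kcnk16, of which Kcna3 and Kcnk13 are known from immune cells and microglia.

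The 22 genes whose products are known to work with these channels were a separate list. A ratio could be had for 18 of them, 7 at least 2-fold higher and 2 lower, with a median log2 ratio of 0.22, against 42.6% and 18.8% of all genes and their median of 0.58. Cntnap2, which encodes the Kv1-clustering protein Caspr2, had 1 count in OHCs and 66.4 CPM in cIHCs (57 of 67 cells, median 54.1, highest 262.3 CPM), a log2 ratio of 13.97 (11.49 to 19.28), with at least 9.30 within cells with Xist. Dpp10, which encodes an auxiliary subunit of Kv4 channels, had reads in 1 OHC (224.6 CPM) and in 61 of 67 cIHCs (median 52.2, highest 395.5 CPM). Its pooled levels were 5.81 and 77.8 CPM, a log2 ratio of 3.74. It was 0.73 within cells with Xist, which include that OHC, at least 11.86 within cells with Y-linked reads and at least 12.47 when each group's highest cell was left out. Unc80, a subunit of the sodium leak channel complex, was at 3.30 CPM in OHCs against 96.3 CPM in cIHCs (62 of 67 cells, log2 ratio 4.87, and 2.97 within cells with Xist), while the pore gene of that complex, Nalcn, was read in 1 cIHC. Dlg3, which encodes the scaffold SAP102, was at 14.02 and 29.7 CPM, with a log2 ratio of 1.08 that was 0.44 within cells with Xist and 1.84 within cells with Y-linked reads. Amigo1, whose product is an auxiliary subunit of Kv2 channels, was at 59.4 CPM in OHCs against 73.3 CPM in cIHCs (log2 ratio 0.30), and the ratio was 5.49 within cells with Xist and -0.28 within cells with Y-linked reads. Dlg1, Dlg2, Dlg4, Adam22 and Unc79 also reached 10 CPM and were within 2-fold over all cells. Within cells with Xist, of which 4 are OHCs, Dlg1 was at a log2 ratio of -1.28, Dlg4 at 0.75 and Unc79 at 6.81. Within cells with Y-linked reads, Dlg4 was at -1.42 and Unc79 at -0.87. Dlg2 and Adam22 were within 2-fold in both sets, Adam22 at -0.68 within cells with Xist.

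Within a group, the members rarely went together from cell to cell. Over the 5 genes read in at least 75% of the 32 OHCs, Spearman's rho of pairs ran from -0.52 (Kcnh2 and Kcnk1) to 0.28. Over the 9 such genes in the 67 cIHCs it ran from -0.29 to 0.31. With the Tbx2 level across cIHCs, rho over the same 9 genes ran from -0.40 for Kcna10 to 0.37 for Kcnk1, with -0.39 for Kcns3. With the number of genes with reads per cell, rho was 0.30 for Tbx2, -0.18 for Kcna10, 0.34 for Kcnk1 and -0.14 for Kcns3. Kcnh6 had a rho of 0.47 with that number and 0.18 with Tbx2. Kcns3 had a rho of -0.34 with total counts per cell. Cells of 1 group share library complexity, so these values are a description only.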

How the data were processed

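Single cells were converted to cDNA with the Smart-Seq HT kit and tagmented, per the labels' protocols. The authors deposited 1 table of whole-number read counts, unnormalised as judged from the values. HISAT2 2.2.1, StringTie 2.2.1, featureCounts 2.0.1 and mm10 are named in the submitters' processing notes. The annotation, strand setting and filters of the counting are not given in the sources used here. Columns of no sample numbered 0.

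Genes and gene lists were chosen with earlier results of these data known. Genes with at least 10 CPM in a group are described singly, others where 1 cell held most reads or where they mark another cell type. Members that are not reported here entered the counts. Genes named outside that rule were chosen after their values were seen. Counts were summed over all cells of a group, and a sum of 0 was set to 3 counts. Both sums at or under 3 gave no ratio. Calculations used Python 3.11.15, pandas 2.3.3 and scipy 1.17.1, with TMM factors from edgeR 4.0.16 as an alternative. On simulated data with 200 changed genes of 8376 in cIHCs against OHCs, 92% of the changed genes' ratios were within 0.5 (log2). The simulation took only genes with at least 10 CPM in OHCs and drew each gene and cell independently. It therefore does not cover genes without OHC reads or differences between animals. Exon lengths, coordinates and overlaps came from GENCODE M21, which held all 74 symbols, and promoters from RefSeq (GRCm38.p6). The GC and TATA motifs were added after the data were seen. Depth ranges stand in the text. Alternatives were other scalings, subsets of cells, thinning, floors, folds and level filters.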

Additional observations from a re-analysis of the deposited data

How the results depend on the processing

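The median log2 ratio of 0.22 over the 46 genes was 0.23 from the mean of CPM per cell, 0.64 without the highest cell of each gene, 0.024 with TMM factors, 0.015 with median-of-ratios scaling, 0.17 and 0.14 with totals without mitochondrial and without the most abundant genes, 0.21 without the cells with the fewest genes, 0.48 within cells with Xist, 0.12 within cells with Y-linked reads, 0.18 after thinning, 0.18 without OHC number 32 (chosen after seeing the data), and 0.18 and 0.055 at means of at least 10 and 1 CPM. From the median of CPM per cell, which left 7 genes, it was -0.15, with 2 genes at least 2-fold higher and 2 lower. The count of 19 higher genes was 10 within cells with Y-linked reads, 5 at a mean of at least 10 CPM and 10 at 1 CPM. All of these settings leave fewer than 46 genes with a ratio. The count of 19 lower genes was 7 without the highest cells, 10 within cells with Xist, 12 within cells with Y-linked reads, 5 and 10 at those means, and 11 at a fold of 4. The cause of the other shifts was not tested. The sign of the log2 ratio turned for Kcna2 (4.36 within cells with Xist), Kcnj16 (1.10 without the highest cells, 0.94 within cells with Y-linked reads), Kcna10 (-0.014 with TMM factors, -0.023 with median-of-ratios scaling), Kcnk1 (0.13 within cells with Y-linked reads) and Kcns3 (-0.14 within cells with Xist). For Kcnk2 without its highest cell, 4 counts against 0 gave a bound of at least -0.78, which shows no direction. TMM factors and median-of-ratios scaling shifted the ratios of all genes by -0.19 and -0.20. No paired analysis was possible because replicate numbers are a running count of cells and no result comes from a test.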
